A study of Mus musculus with 11 samples.

Results

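miR-122 is the dominant microRNA (miRNA) of the hepatocyte, and its hairpin gives rise to a 5p and a 3p arm. Both arms, mmu-miR-122-5p and mmu-miR-122-3p, were taken by name from the table of mature miRNA counts, which made 2 members of 1281 named miRNAs. Each arm was listed on 1 row. The libraries came from untreated C57/B6 mice of generation 4 (G4), whose telomerase was knocked out and whose telomeres were short. They comprised 6 liver samples from G4 p53-/- mice, which lacked p53, and 5 liver samples from G4 p53+/+ mice, which kept it. The generation, the absence of telomerase and the short telomeres were thus common to both genotypes. The labels give neither age nor sex, and mice whose telomeres were intact are not analysed here. The comparison asks which miRNAs differ with p53 in this setting.

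The Mir122 hairpin spans 66 bases on the plus strand of mouse chromosome 18, from 65248861 to 65248926 in GRCm38. GENCODE M21 places it within an exon of the long noncoding RNA AC157910.3, which runs from 65244287 to 65252621. RefSeq also lists Mir122b at the same place, from 65248863 to 65248921, and Mir122b was not analysed here. The sources used here do not give the strand setting of the counting, so reads of these overlapping genes may not be separable.

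A miRNA hairpin is cut into a short duplex, 1 strand of which is usually kept in an Argonaute protein while the other is lost. For miR-122 the 5p arm is the kept strand, and the 3p arm is the passenger. The gene is transcribed in hepatocytes under liver transcription factors such as HNF4A. miR-122 represses messenger RNAs such as those of aldolase A and of the amino acid transporter Slc7a1, supports cholesterol and lipid metabolism, and is required by hepatitis C virus. Mice without it develop fatty liver, fibrosis and liver tumours.

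miR-122 took at least 52.4% of the counts in every library, so every other miRNA was measured in what remained. The mature sequences of the 5 miRNAs next to it in mean share, and of miR-34a-5p, which p53 switches on directly and which was the 1 miRNA that edgeR called between the genotypes, are shown for orientation (RefSeq, GRCm38.p6), each from 5′ to 3′ with the seed, bases 2 to 8, in capitals.
miR-192-5p: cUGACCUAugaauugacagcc
let-7g-5p: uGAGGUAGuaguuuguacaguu
let-7f-5p: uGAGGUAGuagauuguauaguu
miR-21a-5p: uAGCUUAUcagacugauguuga
miR-148a-3p: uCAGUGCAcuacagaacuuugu
miR-34a-5p: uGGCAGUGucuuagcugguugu
let-7g-5p and let-7f-5p have the same seed, and the other 4 have a seed each, so these 6 miRNAs hold 5 seeds. Their genes lie on chromosomes 19 (miR-192), 9 (let-7g), 13 (a let-7f locus), 11 (miR-21a), 6 (miR-148a) and 4 (miR-34a).

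Total miRNA counts per library, each name counted once, ran from 2202415 to 6682492 in p53-/- livers and from 1905609 to 6448820 in p53+/+ livers. The limit that a count of 0 allows, 3 counts, was worth between 0.449 and 1.57 CPM, the count rescaled to a common library total of 1000000. Both arms of miR-122 lay far above it in every library. Intervals for single libraries are 95% intervals for counting error only, since no label mentions molecular identifiers. The labels do not say that each library came from its own mouse, and p-values therefore measure only how these samples vary. All libraries carry the same lane in their descriptions. In bulk tissue, fewer cells of a type and less RNA per cell cannot be told apart.

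miR-122-5p was the most abundant miRNA in all 11 libraries. Its counts in p53-/- livers were 3356241, 3918833, 3436681, 3654943, 1191553 and 3525545 in libraries 6, 7, 8, 10, 11 and 12, and in p53+/+ livers they were 1061547, 998324, 3138713, 3719187 and 2402711 in libraries 1 to 5. As a share of all miRNA counts it ran from 52.8% in library 12 to 64.0% in library 6 of the p53-/- livers, with a median of 58.2%. The p53+/+ shares were 54.0%, 52.4%, 54.0%, 57.7% and 53.9% in libraries 1 to 5. The groups overlapped: 3 of 6 p53-/- libraries lay above the highest p53+/+ library, while p53-/- libraries 8, 11 and 12 lay within the p53+/+ range. The widest Wilson interval of a share, that of p53+/+ library 2, was 52.3 to 52.5%, so the range within each genotype far exceeded counting error.

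The mean share was 58.0 ± 4.21% in p53-/- livers (SD, n = 6) and 54.4 ± 1.95% in p53+/+ livers (SD, n = 5). The difference of 3.64 percentage points had a 95% interval of -0.64 to 8.47 points, and 5 of 6 p53-/- libraries lay above the p53+/+ median. It did not pass the two-sided exact permutation test (p = 0.108; 0.325 after Benjamini-Hochberg adjustment over 3 tests, of both shares and the arm ratio). Without p53-/- library 12 the difference was 4.69 points (exact permutation p = 0.0238, adjusted p = 0.0714 over the 3 tests), which did not pass after adjustment either. p53-/- library 6 carried much of the size, since without it the difference was 2.45 points (exact permutation p = 0.198).

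The p53-/- libraries also differed by the HA number in their descriptions, whose meaning is not given. Libraries 6, 7 and 8, with HA numbers under 500, had a mean share of 60.1 ± 3.39% (SD, n = 3). Libraries 10, 11 and 12, with HA numbers above 500, had 56.0 ± 4.42% (SD, n = 3). All p53+/+ libraries had HA numbers above 500. Among HA numbers above 500 the genotypes differed by 1.54 points (exact permutation p = 0.464), and below 500 genotype and HA number cannot be told apart.

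**Figure D1:**
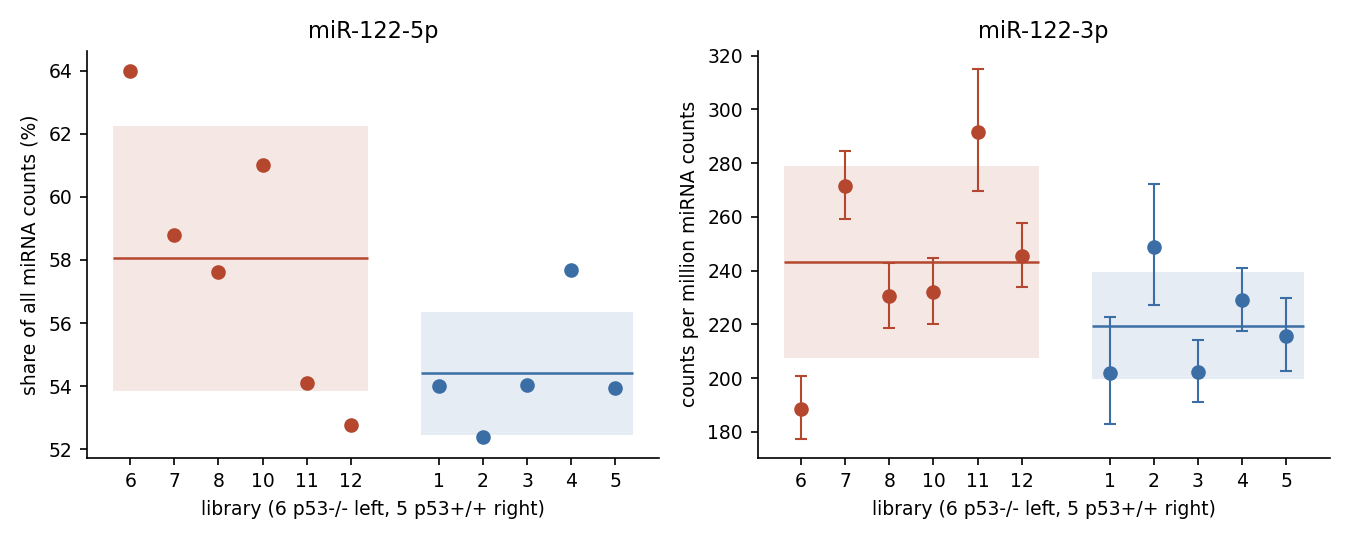
Share of miR-122-5p among all miRNA counts in percent (left) and level of miR-122-3p in CPM (right) in each library, 6 p53-/- libraries left of 5 p53+/+ libraries. Bars are 95% Wilson intervals (smaller than the points for 5p), lines are group means and shading is 1 SD. p53-/- library 6 has the highest 5p share (64.0%) and the lowest 3p level in CPM of all counts (188.6).

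Levels of the passenger strand were lower by more than 3 orders of magnitude. miR-122-3p had 989, 1810, 1374, 1391, 642 and 1641 reads in p53-/- libraries 6, 7, 8, 10, 11 and 12, and 397, 474, 1174, 1477 and 961 in p53+/+ libraries 1 to 5. That placed it between ranks 86 and 96 of all miRNAs in p53-/- livers and between 92 and 102 in p53+/+ livers. In CPM it ran from 188.6 in library 6 to 291.5 in library 11 in p53-/- livers, with a median of 238.9, and stood at 202.0, 248.7, 202.2, 229.0 and 215.8 in p53+/+ libraries 1 to 5. Ranges overlapped. As shares of all counts, p53-/- library 6 had the most 5p of the 11 libraries and the least 3p. This order holds for shares only: scaled by TMM, library 6 had 226.7 CPM of 3p, more than the 189.3, 213.9 and 196.7 CPM in p53+/+ libraries 1, 2 and 3.

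Means were 243.3 ± 35.8 CPM in p53-/- livers (SD, n = 6) and 219.5 ± 19.8 CPM in p53+/+ livers (SD, n = 5). In percent of all counts the shares were 0.0243 ± 0.00358 in p53-/- livers and 0.0220 ± 0.00198 in p53+/+ livers, a difference of 0.00238 points that did not pass (exact permutation p = 0.225, adjusted p = 0.338 over 3 tests; 95% interval -0.00159 to 0.00659 points). A share of all counts is lowered wherever 5p takes more of them. Set against the counts other than miR-122 instead, a measure chosen after seeing the data, 3p stood at 579.9 ± 59.5 CPM in p53-/- livers (SD, n = 6) and 482.5 ± 47.2 CPM in p53+/+ livers (SD, n = 5). All 6 p53-/- libraries then lay above the p53+/+ median. The difference of 97.4 CPM (95% interval 21.4 to 175.8) had an exact permutation p of 0.0216. Adjusted with this measure in place of the planned 3p share among the 3 tests, p was 0.0649, so it did not pass. This adjustment does not count the planned test of the 3p share as a further test. Among HA numbers above 500 that difference was 101.3 CPM (exact permutation p = 0.107).

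The fit over all miRNAs scaled the libraries by TMM, trimmed means of the log ratios between libraries, and tested genotype with edgeR's quasi-likelihood test. Of 388 miRNAs tested, 1 was called, 0.258%, and neither arm of miR-122 was (0 of 2). The normalised level of miR-122-5p was 600277 ± 123496 CPM in p53-/- livers (SD, n = 6) and 535900 ± 66286 CPM in p53+/+ livers (SD, n = 5). On the log2 scale it differed by 0.16 with an SE of 0.16; the 95% interval ran from -0.17 to 0.50, and edgeR's adjusted p was 0.624. miR-122-3p stood at 245.8 ± 18.3 CPM in p53-/- livers (SD, n = 6) and 215.4 ± 24.0 CPM in p53+/+ livers (SD, n = 5), which made 0.19 on the log2 scale with an SE of 0.13. Here the 95% interval ran from -0.09 to 0.48, and edgeR's adjusted p was 0.516. Both intervals stayed within 0.50 of 0 on the log2 scale. DESeq2 called 17 of the 250 miRNAs to which it gave an adjusted p (6.8%), again neither arm (0 of 2). When p53-/- libraries 6, 7 and 8 were left out, miR-122-5p stood at -0.024 (edgeR's adjusted p = 0.977) and miR-122-3p at 0.14.

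The arm ratio is taken within a library, so it is free of depth and scaling. There were 1856 reads of 5p per read of 3p in p53-/- library 11, the lowest, and 3394 in p53-/- library 6, the highest, with a p53-/- median of 2333. The p53+/+ libraries 1 to 5 had 2674, 2106, 2674, 2518 and 2500. The p53-/- libraries spread on both sides of the p53+/+ range. The interval for counting error (exact Clopper-Pearson) was 3188 to 3615 in p53-/- library 6 and 1718 to 2008 in p53-/- library 11, so these libraries differed by more than counting error.

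On the log2 scale the ratio averaged 11.23 ± 0.30 in p53-/- livers (SD, n = 6) and 11.28 ± 0.14 in p53+/+ livers (SD, n = 5). The p53-/- over p53+/+ fold was 0.967, with a 95% interval of 0.773 to 1.26, and the difference of -0.05 did not pass (exact permutation p = 0.779, adjusted p = 0.779 over 3 tests). Without p53-/- library 11 the sign turned, at 0.026 (exact permutation p = 0.794).

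Among hairpins with a single locus, both arms listed once and at least 50 reads on average for each arm, 51 could be compared, 26 with a dominant 5p arm and 25 with a dominant 3p arm. miR-122 was the most one-sided of these 51. Its geometric mean ratio of 2440 stood above that of each of the 50 others, whose median was 10.8 and whose highest, that of miR-27b in favour of 3p, was 1307. miR-192, another hepatocyte miRNA with a dominant 5p arm, followed at 977.8. Of the other abundant hairpins compared, miR-148a, miR-378a and miR-30a kept far more of the lesser arm. The major arm was 123.6 times the minor in miR-148a, 71.5 times in miR-378a and 20.6 times in miR-30a. The cut on reads left out hairpins with few reads of the minor arm. Among those left out was miR-21a, with 1680841 reads of 5p and 231 of 3p over all libraries. The top rank of miR-122 therefore holds only among the hairpins compared. miR-27b and miR-21a were chosen after their values were seen.

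The ratio of miR-122 was also among the steadier ones. The SD of its log2 ratio within genotypes was 0.24, and 47 of 50 other hairpins had a larger one, with a median of 0.39. Its minor arm averaged 1121 reads, and hairpins with fewer reads of the minor arm carry more counting error. No arm ratio was called between the genotypes (0 of 51, or 0.0%, at an adjusted p of 0.05 in exact permutation tests, with 7 at an unadjusted p under 0.05). The difference between genotypes was below 0 for 29 of the other 50 and above 0 for 21, with a median of -0.13. In p53-/- library 6, where the miR-122 ratio stood 0.44 above its median over libraries, the other hairpins deviated by a median of 0.05, and 27 of 50 lay above their own median.

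**Figure D2:**
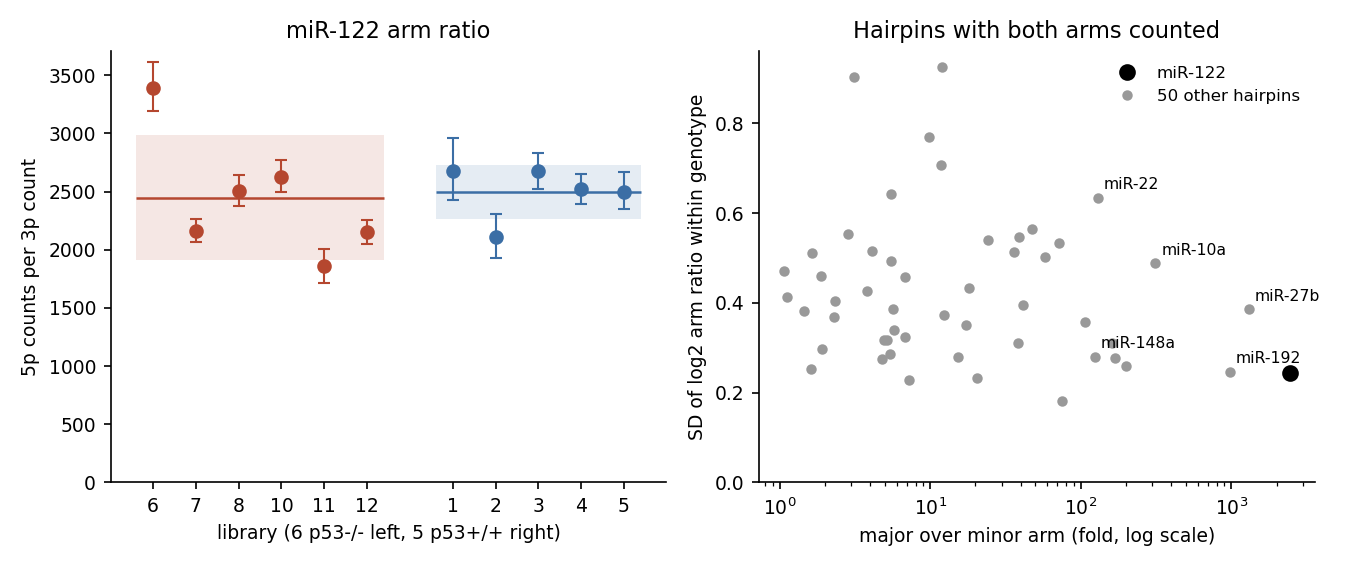
Left, reads of miR-122-5p per read of miR-122-3p in each library, 6 p53-/- left of 5 p53+/+, with exact 95% counting intervals, group means (lines) and 1 SD (shading). Right, fold of the major over the minor arm (log axis) against the SD of the log2 arm ratio within genotypes for miR-122 and 50 other hairpins; miR-122 lies at the far right, at 2440-fold and an SD of 0.24.

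Across the 11 libraries no relation between the arms of miR-122 passed. Normalised log2 levels of 5p and 3p had a Pearson r of 0.451 (permutation p = 0.165) and a Spearman rho of 0.409 (permutation p = 0.212), with adjusted p-values of 0.329 and 0.524 over 4 relations. Leaving out p53-/- libraries 6 and 11, the farthest from the median of 5p, raised r to 0.726, and within p53-/- livers r was 0.209. Both levels were divided by the same TMM factor of each library, which enters r. As shares of all counts, p53-/- library 6 had the most 5p (64.0%) and the least 3p (0.0189%) of the 11 libraries. The relation between the 2 shares was not tested. Depth was set against both shares and the ratio as well. Total counts had an r of 0.485 with the 5p share, -0.168 with the 3p share and 0.317 with the log2 arm ratio (permutation p = 0.132, 0.623 and 0.341, adjusted p = 0.329, 0.623 and 0.455). Their rho values were 0.373, 0.182 and 0 (permutation p = 0.262, 0.593 and 1, adjusted p = 0.524, 0.790 and 1). Without p53+/+ libraries 1 and 2, the farthest in depth, r was 0.271, -0.444 and 0.426, and within p53-/- livers it was 0.298, -0.495 and 0.426.

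Of 123 other miRNAs with a mean of at least 100 normalised CPM, 19 had a higher r with miR-122-5p than its own other arm had. The closest were let-7f-5p (r = 0.876) and let-7g-5p (0.835), members of the let-7 family that restrains growth, and miR-148a-3p (0.801), an abundant hepatocyte miRNA that represses the LDL receptor mRNA. They were followed by miR-183-5p (0.780) and let-7e-5p (0.762). Without p53-/- library 6 these values were 0.840, 0.784, 0.835, 0.646 and 0.606. The lowest were those of miR-31-5p (-0.638), miR-378a-5p (-0.602) and miR-6243 (-0.598). Each r is a description over 11 libraries, and in each library both miRNAs were divided by the same TMM factor. Normalised miR-122-5p was highest in p53-/- library 6 (769332 CPM), whose factor was the lowest (0.832). It was lowest in p53-/- library 11 (435040 CPM), whose factor was the highest (1.24). A miRNA with a steady share of counts follows the same factor, so the order by r depends in part on the scaling. How r would stand without the factors was not tested. let-7f-5p, let-7g-5p and miR-148a-3p are also among the 5 miRNAs next to miR-122-5p in share.

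Behind miR-122-5p the counts fell off steeply. miR-192-5p, a hepatocyte miRNA known in human cells to respond to p53, was next, with 3.84 ± 0.455% of counts in p53-/- livers (SD, n = 6) and 4.35 ± 0.837% in p53+/+ livers (SD, n = 5). let-7g-5p had 3.23 ± 0.146% in p53-/- livers and 3.51 ± 0.205% in p53+/+ livers, and miR-21a-5p had 3.13 ± 0.952% in p53-/- livers and 3.01 ± 0.913% in p53+/+ livers. miR-148a-3p had 2.87 ± 0.367% in p53-/- livers and 2.79 ± 0.422% in p53+/+ livers, and let-7f-5p had 2.12 ± 0.167% in p53-/- livers and 2.24 ± 0.254% in p53+/+ livers. The second most abundant miRNA was miR-192-5p in 9 of 11 libraries, let-7g-5p in p53-/- library 6 and miR-22-3p in p53+/+ library 2. Reads of miR-122-5p were 15.1 ± 2.32 times those of the second in p53-/- livers (SD, n = 6) and 12.3 ± 1.78 times in p53+/+ livers (SD, n = 5).

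**Figure D3:**
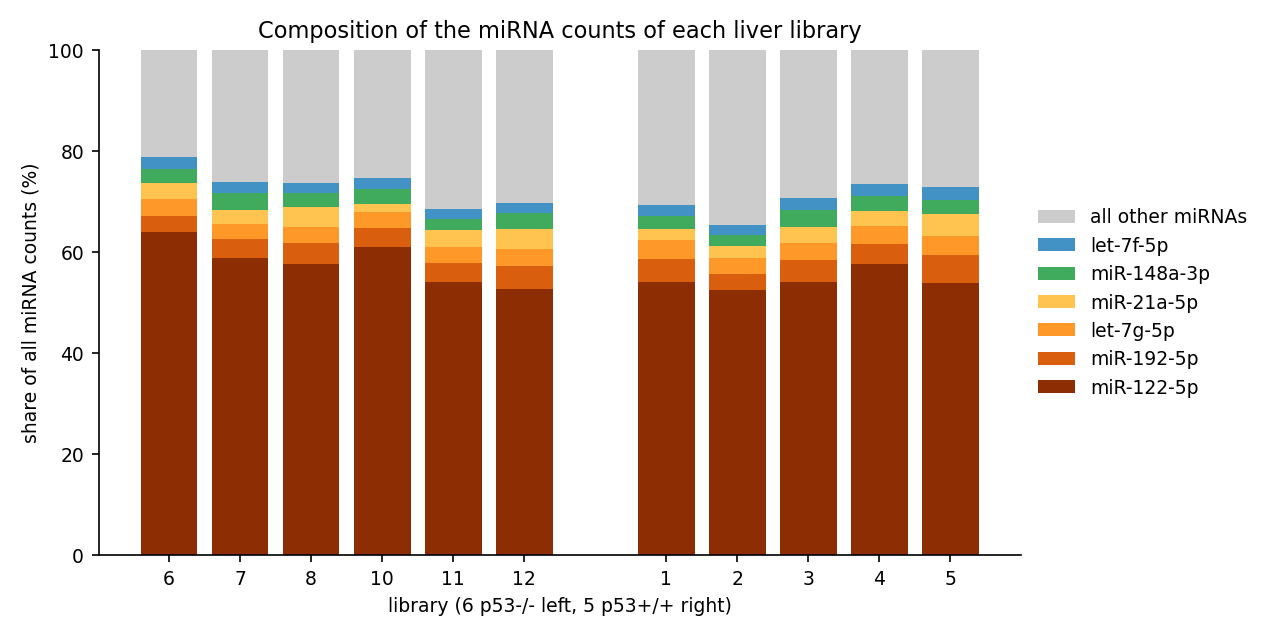
Share of all miRNA counts in percent taken by miR-122-5p, by the 5 miRNAs next to it and by all others, stacked for each library, 6 p53-/- left of 5 p53+/+. miR-122-5p takes between 52.4% and 64.0% of every bar, and no other miRNA passes 5.51%.

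The counts left for all other miRNAs made up 41.9 ± 4.20% in p53-/- livers (SD, n = 6) and 45.6 ± 1.95% in p53+/+ livers (SD, n = 5). They ran from 36.0% in library 6 to 47.2% in library 12 in p53-/- livers, and were 46.0%, 47.6%, 45.9%, 42.3% and 46.0% in p53+/+ libraries 1 to 5. Taking both miR-122 arms out of the total therefore raised every other miRNA's CPM by 2.78-fold in p53-/- library 6 and by 2.10-fold in p53+/+ library 2. Between these libraries the choice of total moves any other miRNA by 1.32-fold, or 0.40 on the log2 scale. Averaged over a genotype, the factor was 1.26 in p53-/- livers and 1.14 in p53+/+ livers on the log2 scale, 0.13 higher in p53-/- livers.

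let-7g-5p shows the effect on a single miRNA. As CPM of all counts it stood at 32309 ± 1456 in p53-/- livers (SD, n = 6) and 35114 ± 2046 in p53+/+ livers (SD, n = 5). As CPM of the counts other than miR-122 it stood at 77861 ± 10336 in p53-/- livers and 77229 ± 6327 in p53+/+ livers. Its log2 fold change was -0.12 with miR-122 in the total, 0.01 without it and -0.06 under TMM, and none of the 3 passed. For miR-192-5p the same 3 values were -0.18, -0.06 and -0.14, and for miR-148a-3p 0.04, 0.17 and 0.10. For miR-34a-5p, whose fold is large, the total mattered little: its log2 fold change was -3.36 with miR-122 in the total, -3.25 without it and -3.33 under TMM (adjusted p = 2.95e-05, 6.76e-05 and 7.07e-05 in edgeR).

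Taking miR-122 out of the total moved the fold changes of the other miRNAs tested both ways upward, by unlike amounts. With miR-122 in the total and no scaling factors, 179 of 388 miRNAs (46.1%) had a log2 fold change above 0, with a median of -0.05. With miR-122 taken out, 223 of 384 (58.1%) did, with a median of 0.07. The shift of a miRNA had a median of 0.12 and ran from 0.03 to 0.25 over the 383 miRNAs tested both ways. The sign turned for 45 of them (11.7%), a count set by how many fold changes lay near 0. The largest of these was 0.23 away from 0 on the log2 scale with miR-122 in the total, and the smallest unadjusted p among them under either total was 0.202 in edgeR. At an unadjusted p under 0.05 in edgeR there were 28 higher and 36 lower in p53-/- livers with miR-122 in the total, against 41 higher and 24 lower without it, and 32 higher and 35 lower under TMM. Each way edgeR called 1 miRNA at an adjusted p of 0.05, miR-34a-5p, which was 0.258% of 388 with miR-122 in the total and 0.26% of 384 without it. No miRNA's call in edgeR differed between the 2 totals.

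TMM factors rescale each library by its less extreme miRNAs. They were 0.832, 1.00, 0.907, 0.891, 1.24 and 1.07 in p53-/- libraries 6, 7, 8, 10, 11 and 12, and 1.07, 1.16, 1.03, 0.922 and 0.944 in p53+/+ libraries 1 to 5. Divided by each library's relative part of other counts, they lay between 0.891 in p53+/+ library 5 and 1.18 in p53-/- library 11, so library 11 received a larger factor than its miR-122 share alone would give. With TMM computed after miR-122 was removed, the median log2 fold change was 0.01, in place of -0.01 with it. Among the 123 miRNAs above 100 CPM, the median SD of log2(CPM + 1) within genotypes was 0.32 without miR-122 in the total, 0.32 under TMM and 0.35 with miR-122 in the total, and 94 of 123 had a smaller SD once it was removed.

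**Figure D4:**
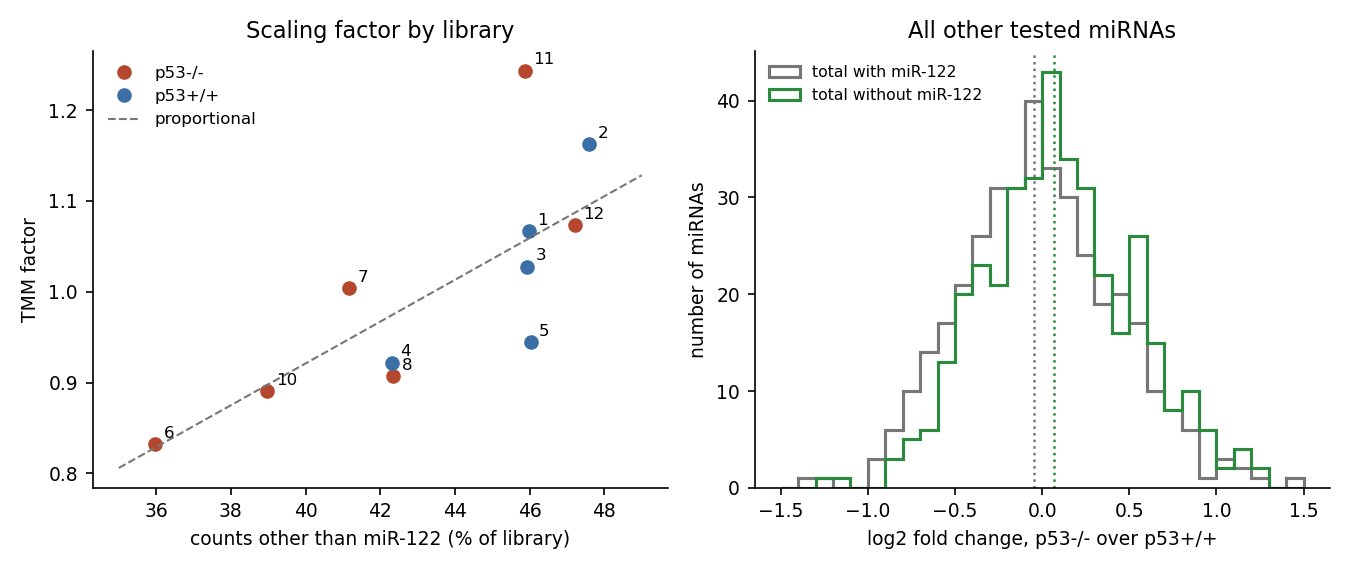
Left, TMM factor of each library against the percent of its counts that were not miR-122, 6 p53-/- and 5 p53+/+ libraries labelled by number; the dashed line marks proportion. Right, number of other miRNAs by log2 fold change (p53-/- over p53+/+, bins of 0.1, 8 miRNAs beyond 1.5 not drawn) with miR-122 in the library total and without it; dotted lines are medians, at -0.05 and 0.07.

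The authors' deposited CPM table gave miR-122-5p smaller shares, between 48.7% and 59.1% in p53-/- livers and between 47.0% and 53.2% in p53+/+ livers. Its totals count each miRNA with several hairpins once per hairpin, and miR-122 has a single hairpin. With that table in limma, on log2(CPM + 1), the log2 fold changes were 0.10 for miR-122-5p and 0.15 for miR-122-3p (adjusted p = 0.748 and 0.694 in limma).

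No other miRNA of the hepatocyte list was called in edgeR. DESeq2 called 2 of the 25 to which it gave an adjusted p, miR-194-2-3p (log2 fold change 0.46, adjusted p = 0.000435) and miR-30e-5p (-0.80, adjusted p = 0.0335), whose adjusted p was 0.174 each in edgeR. Of the list's 43 other arms all were detected and 30 tested, 10 above 0 and 20 below, with a median log2 fold change of -0.05 beside -0.01 over all 388. edgeR called 0.258% of all 388 tested miRNAs, and DESeq2 called 6.8% of the 250 to which it gave an adjusted p. Several members, such as miR-21a, miR-103 and the miR-30 family, are expressed in other cell types too. The 6 most abundant arms after miR-122-5p were miR-192-5p (-0.14, SE 0.18), miR-21a-5p (0.08, SE 0.27), a growth-promoting miRNA, miR-148a-3p (0.10, SE 0.18), miR-30a-5p (-0.29, SE 0.16), miR-378a-3p (-0.01, SE 0.26), a regulator of mitochondrial metabolism encoded within Ppargc1b, and miR-22-3p (-0.88, SE 0.42). Their adjusted p-values in edgeR lay between 0.293 for miR-22-3p and 0.988 for miR-378a-3p. The sign of the list's median itself turned with the total, at 0.02 without miR-122 and no factors.

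**Figure D5:**
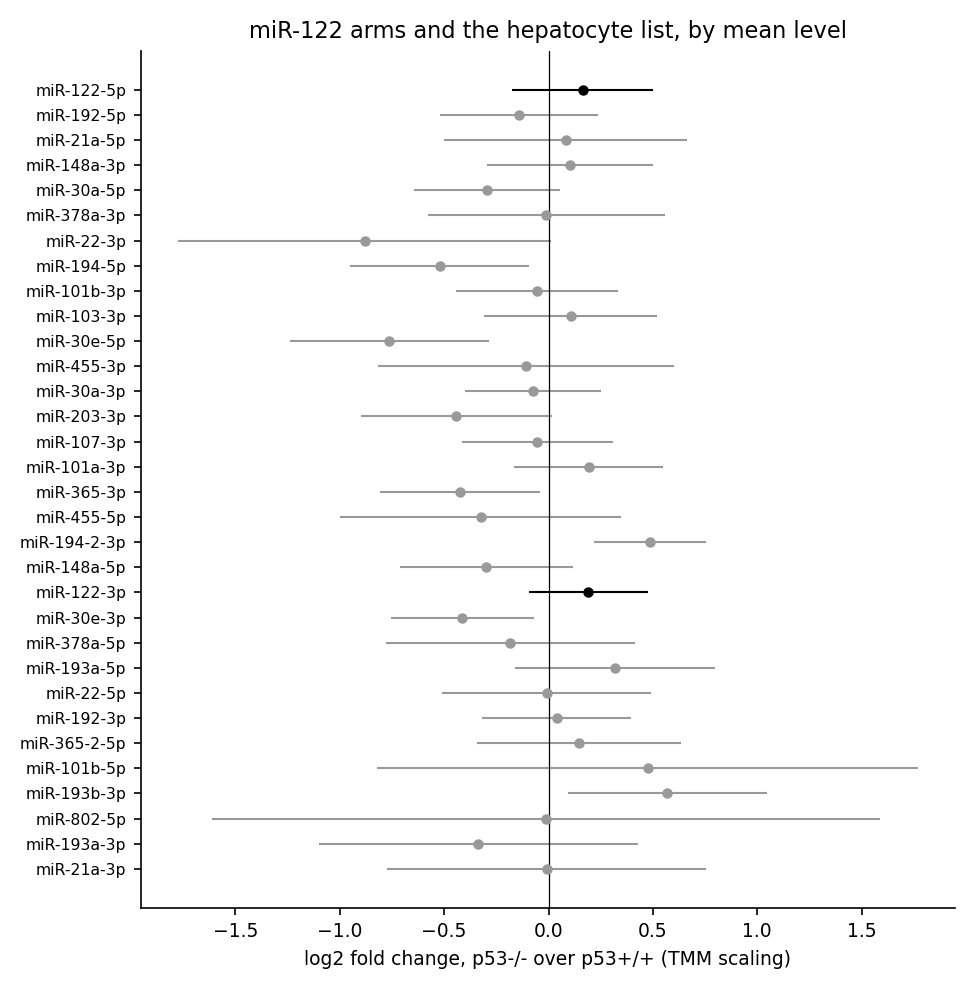
Log2 fold change (p53-/- over p53+/+, TMM scaling) with 95% intervals for both miR-122 arms (black) and the 30 tested arms of the hepatocyte list (grey), from the highest mean level at the top. Both miR-122 intervals include 0, and edgeR called no arm drawn; DESeq2 called miR-194-2-3p and miR-30e-5p.

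The other lists show what else the libraries held, as a percent of the counts other than miR-122. Hepatocyte miRNAs took 37.5 ± 2.71% in p53-/- livers (SD, n = 6) and 39.0 ± 1.93% in p53+/+ livers (SD, n = 5). p53-/- library 6, with the highest share of miR-122-5p, had the lowest hepatocyte part, at 34.6%, and the highest leukocyte part, at 0.776%. Over all libraries the leukocyte part ran from 0.373 to 0.776% in p53-/- livers and from 0.329 to 0.601% in p53+/+ livers, with 17 of 18 arms detected and miR-181a-2-3p at 0. In this list miR-146a-5p (47526) and miR-181a-5p (38611) had the most reads, against 4561 of miR-150-5p, 1716 of miR-223-3p and 860 of miR-142-5p. The r with miR-122-5p was 0.251 for miR-181a-5p and 0.378 for miR-181b-5p, and -0.390 and -0.741 without library 6. For miR-146a-5p, the member with the most reads, r was -0.214, and for miR-342-3p it was -0.052. Without library 6 these 2 stood at -0.377 and -0.092. Whether library 6 held more leukocytes was not tested. The neuronal part of library 6 was 0.163%, the highest of a p53-/- range from 0.0380% and a p53+/+ range of 0.0392 to 0.0471%. miR-128-3p gave most of the neuronal reads, and both arms of the neuron-specific miR-124 were at 0. What part these miRNAs play in the miR-122 share of library 6 was not tested.

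The remaining lists overlapped between the genotypes. Endothelial miRNAs took 1.51 to 2.38% in p53-/- livers and 1.40 to 2.69% in p53+/+ livers. Mesenchymal and stellate miRNAs took 4.32 to 5.98% in p53-/- livers and 3.69 to 7.00% in p53+/+ livers, and erythroid miRNAs 0.225 to 0.415% in p53-/- livers and 0.235 to 0.398% in p53+/+ livers. Epithelial and biliary miRNAs took 0.209 to 0.686% in p53-/- livers and 0.257 to 0.699% in p53+/+ livers. miRNAs linked to p53 took 11.0 to 12.4% in p53-/- livers and 10.6 to 14.3% in p53+/+ livers, and pancreas miRNAs 0.00158 to 0.00647% in p53-/- livers and 0.000664 to 0.0854% in p53+/+ livers. Striated muscle miRNAs took at most 0.0111% of these counts in p53-/- livers and 0.00997% in p53+/+ livers, and 5 of 15 arms were detected.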

How the data were processed

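Small RNA was sequenced from 11 liver samples, 6 G4 p53-/- and 5 G4 p53+/+. Per the labels' protocols, RNA came from 50 mg of tissue by Trizol. The deposited counts are reads per mature miRNA and hairpin. Per the submitters' processing notes they used GRCm38 and limma; the sources used here name no aligner, counter or version. CPM in the authors' table are scaled to the sum of all 1418 listed entries. Values per library equalled those of the series table (0 differing).

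Each of 1281 names was counted once, with its highest count over hairpins (137 repeats). edgeR 4.0.16 in R 4.3.3 (filterByExpr, TMM, quasi-likelihood test, Benjamini-Hochberg over 388 miRNAs, which held 99.98% of counts) was tested on simulated data first. Fold changes are p53-/- over p53+/+; the threshold was an adjusted p of 0.05. Shares and arm ratios were compared by two-sided exact permutation tests (scipy 1.17.1). The smallest p they gave among the 51 arm ratios was 0.00433. The 95% intervals of shares and arm ratios hold the shifts not refused by such a test. Correlations used 100000 permutations.

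Alternatives were other scalings, filters, hairpin sums, DESeq2 1.42.0, limma 3.58.1 on log2(CPM + 1), leaving out each library, and HA numbers above 500. The members, the 10 marker lists and the naming rules were chosen with earlier results of these data known. Named miRNAs were both arms, the 5 next in share, miR-34a-5p and the 6 most abundant hepatocyte arms. The 5 highest and 3 lowest in r with miR-122-5p were named too. So were the 5 most abundant of the hairpins compared for arm ratios.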

Additional observations from a re-analysis of the deposited data

Results flagged for a closer look

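In p53+/+ livers the log2 arm ratio of library 2 was 11.04, the lowest of its group and set apart from the other 4 by a gap of 0.719 of the group's range, against a limit of 0.71 for 5 samples. In p53-/- livers the total count of library 11, 2202415, was the lowest of its group and set apart from the other 5 by 0.679 of the range, against a limit of 0.625 for 6 samples. These were 2 of 16 groups of values looked at, and chance sets apart about 1 group in 20.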

How the results depend on the processing

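Neither miR-122 arm was called in edgeR, DESeq2 or limma under any of 21 alternatives each. For miR-122-5p the log2 value kept its sign in 20 of them and turned to -0.024 with p53-/- libraries of HA numbers above 500 alone; with a library left out it ran from 0.08 to 0.28. That of miR-122-3p ran from 0.11 to 0.23 with a library left out and up to 0.26 with the total without miR-122 as library size. The difference in 5p share ran from 2.45 to 4.69 points with a library left out, the highest without p53-/- library 12 (exact permutation p = 0.0238, adjusted p = 0.0714 over the 3 tests), and was 1.54 points with HA numbers above 500. The difference in 3p share ran from 0.00141 to 0.00347 points with a library left out and was 0.00369 points with HA numbers above 500. Of the counts without miR-122, a measure chosen after seeing the data, it was 0.00974 points. Its exact permutation p was 0.0216 (adjusted p = 0.0649 with this measure in place of the planned 3p share). The log2 arm ratio difference ran from -0.15 to 0.026 with a library left out, the upper end without p53-/- library 11, and was -0.18 with HA numbers above 500. The number of miRNAs called was 1 in 21 of 22 alternatives and 17 of 250 (6.8%) in DESeq2, 8 higher and 9 lower. miR-34a-5p was called in all 22. The cause of these changes was not tested. No paired analysis was possible because the labels name no pairs of samples between the genotypes. Depth limits miR-122-3p, at 397 reads where it was lowest, more than miR-122-5p.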
